A study of Mus musculus with 7 samples.

Results

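The proteasome genes examined here were the mouse genes whose symbols start with Psma, Psmb, Psmc, Psmd, Psme, Psmf or Psmg and that had an H3K18La peak at the promoter of a protein-coding transcript. For each gene the promoter peak nearest the transcription start site was taken, which gave 29 genes of the 9956 protein-coding genes with such a peak, out of 108253 merged peaks in all. H3K18La, histone H3 lactylated at lysine 18, was mapped by CUT&Tag, in which an antibody steers an enzyme to the mark so that the DNA beside it is released and sequenced. The libraries came from dissociated whole retina of C57Bl/6J mice without any engineered allele or treatment, 2 libraries at postnatal day 4 (P4), 2 at P10 and 3 at P28, all in batch 1 except P28 replicate 1, which formed batch 2. The design text calls the libraries biological replicates without naming animals, so the p-values measure the spread between these libraries.

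The proteasome degrades proteins that carry ubiquitin. Its 20S core is a barrel of stacked rings, in which outer rings of alpha subunits (Psma genes) gate the entry and inner rings of beta subunits (Psmb genes) hold the proteolytic sites. The 19S regulatory particle caps the barrel, with a ring of ATPases (Psmc genes) that unfold substrates and non-ATPase subunits (most Psmd genes) that bind and process ubiquitin chains. Interferon induces the immunoproteasome subunits Psmb8, Psmb9 and Psmb10, which replace the catalytic beta subunits of the standard barrel, and the activator subunits Psme1 and Psme2. In the retina, photoreceptors make large amounts of protein for their outer segments, and the proteasome is part of the quality control of these proteins.

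By these roles, the 29 genes held 10 of the 20S core (Psma1, Psma2, Psma3, Psma4, Psma6, Psmb1, Psmb2, Psmb3, Psmb4 and Psmb5), 9 of the 19S regulatory particle (Psmc2, Psmc3, Psmc4, Psmc6, Psmd3, Psmd6, Psmd7, Psmd8 and Psmd12), and 4 assembly chaperones (Psmd5, Psmd10, Psmg1 and Psmg4). Another 2 were interferon-inducible (Psmb8 and Psme1) and 3 were other activators or inhibitors (Psme3, Psme4 and Psmf1). Psmc3ip matched by its symbol alone, since its protein acts in meiotic recombination and is not a proteasome subunit. The other 21 of the 50 coding genes with such symbols in the GENCODE annotation had no peak that met the rule. Of these, 7 had no peak at all (Psma5, Psma7, Psmb6, Psmc5, Psmd2, Psme2b and Psmg3), 8 had a peak near their start that was annotated to another gene or to a non-coding transcript, and 6 had other peaks only. The catalytic core subunits Psmb6 and Psmb7 and the inducible subunits Psmb9, Psmb10 and Psme2 were therefore outside the set.

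All 29 peaks covered the annotated start site and the beginning of the gene, with the first exon and its 5' untranslated part (GRCm38 coordinates). They reached a median of 361 bases upstream, from 48 (Psmd6) to 994 (Psmc2), and a median of 487 bases downstream, from 41 (Psmc3ip) to 1837 (Psme1). The plot of peak extents shows both sides of the start for each gene. Their median width of 923 bases, from 335 to 2032, lay below the median of 1151 bases over all promoter genes. In 4 of the 29, the peak also held the start of another coding gene on the opposite strand, namely Dnajc2 beside Psmc2, Mrpl32 beside Psma2, AY074887 beside Psma4 and Atg4a beside Psmd10. The signal of these 4 peaks cannot be assigned to 1 of the paired genes. The peak of Psmc3 also held the start of a non-coding gene on the opposite strand, Gm13778.

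**Figure D1:**
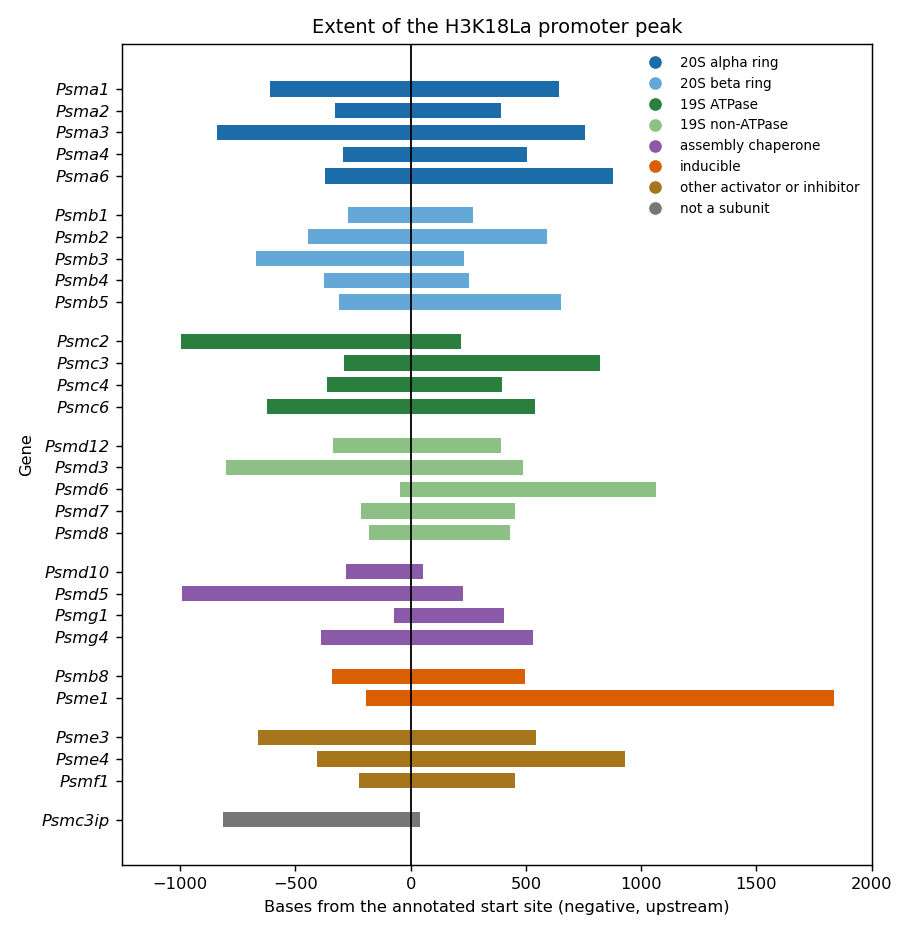
Extent of each H3K18La promoter peak around the annotated start site in bases (x axis), with upstream to the left, for the 29 genes grouped by role (colour). Every bar crosses the start site, and the peak of Psme1 runs furthest into its gene, 1837 bases.

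To show the promoters behind the results, the upstream sequences of the 3 genes with the largest and the 3 with the smallest change from P4 to P28 are printed, among the 20 genes whose promoter window held at least 100 bases outside exons. They come from the RefSeq promoter windows of GRCm38.p6 (250 bases before to 50 after the start), trimmed to the stretch without exons and written 5′ to 3′ on the gene's strand. Capitals mark matches, on either strand, to the GC box GGGCGG, the CCAAT box, the TATA box TATAAA and the antioxidant response core TGACNNNGC. The largest changes were those of Psmd8 (chr7:29180702-29180923, minus strand), Psmd12 (chr11:107479278-107479483, plus strand) and Psmg4 (chr13:34162714-34162963, plus strand), of which Psmg4 did not pass the test. The smallest were those of Psma1 (chr7:114276119-114276366, minus strand), Psmd6 (chr14:14120985-14121195, minus strand) and Psmd10 (chrX:140956729-140956906, minus strand).
Psmd8: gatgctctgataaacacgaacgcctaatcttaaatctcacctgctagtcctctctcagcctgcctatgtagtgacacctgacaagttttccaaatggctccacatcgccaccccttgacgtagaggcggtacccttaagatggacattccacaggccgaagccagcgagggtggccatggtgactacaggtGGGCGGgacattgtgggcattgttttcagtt
Psmd12: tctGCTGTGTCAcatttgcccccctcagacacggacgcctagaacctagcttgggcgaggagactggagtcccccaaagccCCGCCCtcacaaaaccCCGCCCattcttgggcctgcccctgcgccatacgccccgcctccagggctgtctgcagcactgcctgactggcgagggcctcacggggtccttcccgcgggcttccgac
Psmg4: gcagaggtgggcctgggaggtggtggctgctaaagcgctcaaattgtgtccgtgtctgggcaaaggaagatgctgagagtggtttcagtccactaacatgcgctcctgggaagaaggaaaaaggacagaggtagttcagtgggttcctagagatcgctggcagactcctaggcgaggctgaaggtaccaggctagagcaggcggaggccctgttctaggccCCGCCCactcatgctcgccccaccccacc
Psma1: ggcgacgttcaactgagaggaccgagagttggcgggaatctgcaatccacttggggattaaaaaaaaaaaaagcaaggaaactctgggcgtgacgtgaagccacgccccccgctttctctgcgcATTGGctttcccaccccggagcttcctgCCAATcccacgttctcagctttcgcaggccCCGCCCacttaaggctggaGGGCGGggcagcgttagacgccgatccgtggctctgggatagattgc
Psmd6: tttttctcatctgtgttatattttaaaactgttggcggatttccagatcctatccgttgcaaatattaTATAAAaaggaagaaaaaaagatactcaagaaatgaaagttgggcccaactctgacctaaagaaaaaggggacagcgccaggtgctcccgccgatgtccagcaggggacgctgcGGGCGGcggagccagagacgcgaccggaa
Psmd10: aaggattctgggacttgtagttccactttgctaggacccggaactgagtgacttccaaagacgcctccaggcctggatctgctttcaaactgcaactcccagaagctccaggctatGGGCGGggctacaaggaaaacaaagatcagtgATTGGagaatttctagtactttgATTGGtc
The stretches of Psmd12, Psmg4, Psma1 and Psmd10 lay wholly inside their peaks, that of Psmd8 for 181 of its 222 bases and that of Psmd6 for 48 of its 211.

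RefSeq promoter windows were at hand for 24 of the 29 genes, without Psmb1, Psmb2, Psmc3, Psmd3 and Psmd7, and for 7984 of the 9956 promoter genes. The members' windows had a median GC content of 60.7% (49.3% to 71%), against 61.3% over all promoter genes, and an observed-to-expected CpG ratio of 0.77 against 0.76. The GC box GGGCGG, the site of SP and KLF factors, was present in 13 of 24 windows (54.2%) and in 65.3% of all windows. CCAAT, the site of NF-Y, was present in 8 (33.3%) and in 37.7% of all. The ETS core CCGGAAG was present in 9 of 24 (37.5%) and in 15.4% of all windows, among them 4 of the 6 windows of the 19S genes (Psmc2, Psmc6, Psmd6 and Psmd12) and 1 of the 8 of the 20S core (Psma6).

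The antioxidant response core TGACNNNGC, the kind of site through which NFE2L1 raises proteasome genes, was present in 4 windows (Psmb5, Psmc6, Psmd12 and Psme4), or 16.7%, against 14.5% of all. The interferon response core GAAANNGAA was present in 4 (Psmb3, Psmb4, Psme1 and Psmg4), or 16.7%, against 5.79% of all. The NRF1 core GCGCATGC was present in 2 windows (8.33% against 5.42%) and TATAAA in 3 (12.5% against 7.16%). Each motif was searched on both strands, and none of the motifs contains another. A match describes letters in a window and not a bound site.

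The libraries differed in depth, which sets how far single promoters can be read. Reads in peaks numbered 358971 and 295383 at P4, 199970 and 660740 at P10, and from 1615969 to 8274373 at P28. Reads were recovered from RPKM (reads per kilobase of peak, scaled to a normalised library size) and were whole, within 0.01 of a read, for 100% of values. At the members, no peak held more than 8 reads in a P4 library or more than 9 in a P10 library, whereas the P28 libraries held from 3 to 187. In 19 of the 29 genes each P4 library had 3 reads or fewer (65.5% against 39.7% of all promoter genes). The same number was at this floor at P10 (65.5% against 40.8%). Reads in peaks made up 16.3% and 17.6% of the normalised library size at P4, 36.1% and 52.1% at P10, and 42.4% to 57.1% at P28. This share moved with age, and its part in the differences below was not tested.

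The retina label was checked on marker genes. Of 7 rod markers, 6 had a promoter peak and all 6 were called higher at P28 than at P4, with a pooled level of 2.06 and 1.63 RPKM at P4, 14.8 and 13 at P10 and 12, 17.9 and 19.4 at P28. Of 8 markers of microglia and other immune cells, cells rich in immunoproteasome, C1qa was the only one with a promoter peak, at 1.63 and 1.71 RPKM at P4, 3.89 and 2.26 at P10 and 1.49 to 4.71 at P28. It did not pass the test, and Ptprc, Csf1r and Cx3cr1 were among the 7 without a promoter peak. Of 4 endothelial markers 2 had one and none was called. Their pooled level was 2.55 and 4.30 RPKM at P4, 1.45 and 3.16 at P10 and from 1.05 to 1.94 at P28. Cdh5 changed by -1.40 ± 0.52 from P4 to P28 and Cldn5 by 0.29 ± 0.39. Of 4 markers of Mueller glia 2 had a promoter peak. Glul was called higher at P28 (change 1.89 ± 0.44, limma adjusted p = 0.00732) and Rlbp1 was not (0.41 ± 0.80). Their pooled level was 2.01 and 2.99 RPKM at P4, 3.72 and 7.19 at P10 and 9.03 to 12.5 at P28. Of 3 bipolar markers 2 had a promoter peak and none was called. The pooled bipolar level was 1.61 and 0.703 RPKM at P4, 0.709 and 0.310 at P10 and 2.16 to 3.19 at P28. The markers of other tissues (Alb, Ins2, Krt5 and Myh6) and of amacrine cells had no promoter peak. In bulk retina, fewer cells of a type and less mark per cell cannot be told apart, and the part of cell composition in the results below was not tested.

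Taken as one set, the proteasome promoters carried less H3K18La per length than the promoter genes as a whole at every age. The pooled level, the reads of all member peaks divided by their summed width and the library size, was 1.03 and 1.56 RPKM at P4, 2.11 and 2.26 at P10 and 4.14, 4.26 and 4.94 at P28. The 3 ages did not overlap. Over all 9956 promoter genes the pooled level was 1.98 ± 0.06 RPKM (SD) in the 2 P4 libraries, 4.70 ± 0.73 in the 2 P10 libraries and 7.21 ± 0.80 in the 3 P28 libraries. The members' level was thus 53.1% and 77.3% of that of all promoter genes in the P4 libraries, 50.4% and 43.4% in the P10 libraries and 63.7%, 60.5% and 61.2% in the P28 libraries. The upper bound of the 95% counting interval stayed below 100% in each of the 7 libraries, the nearest being P4 replicate 2 (60.7% to 97.1%). These intervals cover counting error only. By the median gene, which does not weight wide peaks, the gap at P28 was smaller. The median member had 3.87, 3.84 and 5.03 RPKM at P28 against 4.5, 4.82 and 5.53 for the median promoter gene, or 86.0%, 79.6% and 90.9%. The same share was 48.2% and 81.0% in the P4 libraries and 62.6% and 47.2% in the P10 libraries.

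**Figure D2:**
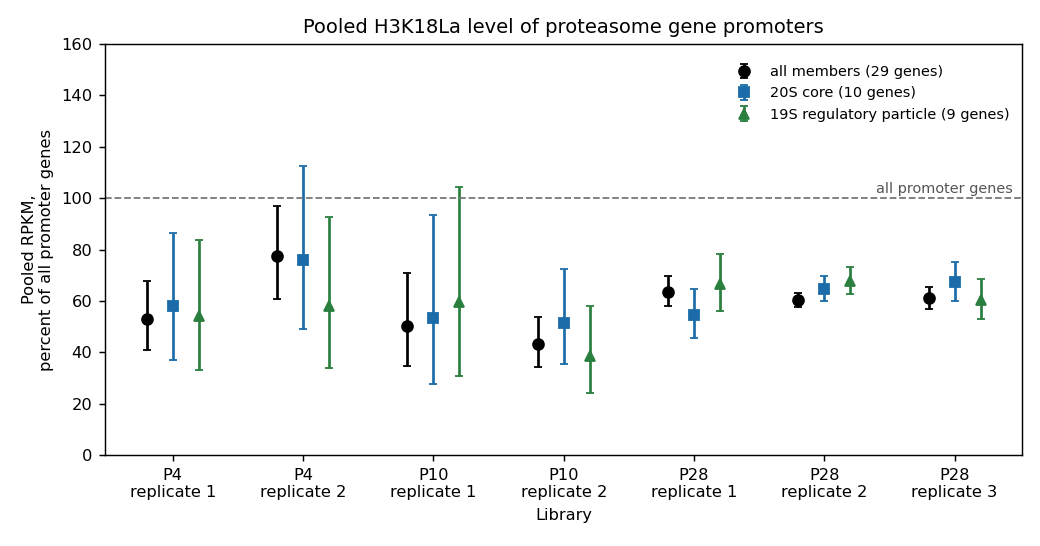
Pooled RPKM of the 29 genes, of the 10 genes of the 20S core and of the 9 genes of the 19S regulatory particle, as a percentage of the pooled RPKM of all 9956 promoter genes (y axis), in each of the 7 libraries (x axis). Bars are 95% counting intervals. The 29 genes lie between 43.4% and 77.3%.

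At P28, where depth was highest, member levels ran from 1.12 RPKM (Psmd6) to 12.8 RPKM (Psmd8). Ranked by P28 level among all promoter genes, Psmd8 stood at percentile 88.9 and Psmg4 at 83.0, followed by Psmd12 at 72.3, and the lowest was Psmd6 at 3.37. The 19S non-ATPase subunits had the highest pooled level of the 20S and 19S classes, with 5.80 ± 0.40 RPKM (SD, n = 3) against 3.49 ± 0.18 for the 19S ATPases, 4.36 ± 0.93 for the alpha ring and 4.72 ± 1.04 for the beta ring. The beta ring overlapped with the non-ATPase range through P28 replicate 3 (5.88 RPKM), while the alpha ring and the ATPases lay below it in every P28 library. The inducible pair reached 3.13 ± 0.20 and the assembly chaperones 6.40 ± 0.99. The 5 non-ATPase genes held both the lowest (Psmd6) and the highest (Psmd8) level of all members. Psmd8 gave 132 of the 428 reads of this class in P28 replicate 2, and a pooled level without it was not computed. By the median gene the class had 6.50 ± 0.32 RPKM, against 3.03 ± 0.27 for the ATPases, 4.36 ± 2.20 for the alpha ring and 4.74 ± 0.72 for the beta ring.

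**Figure D3:**
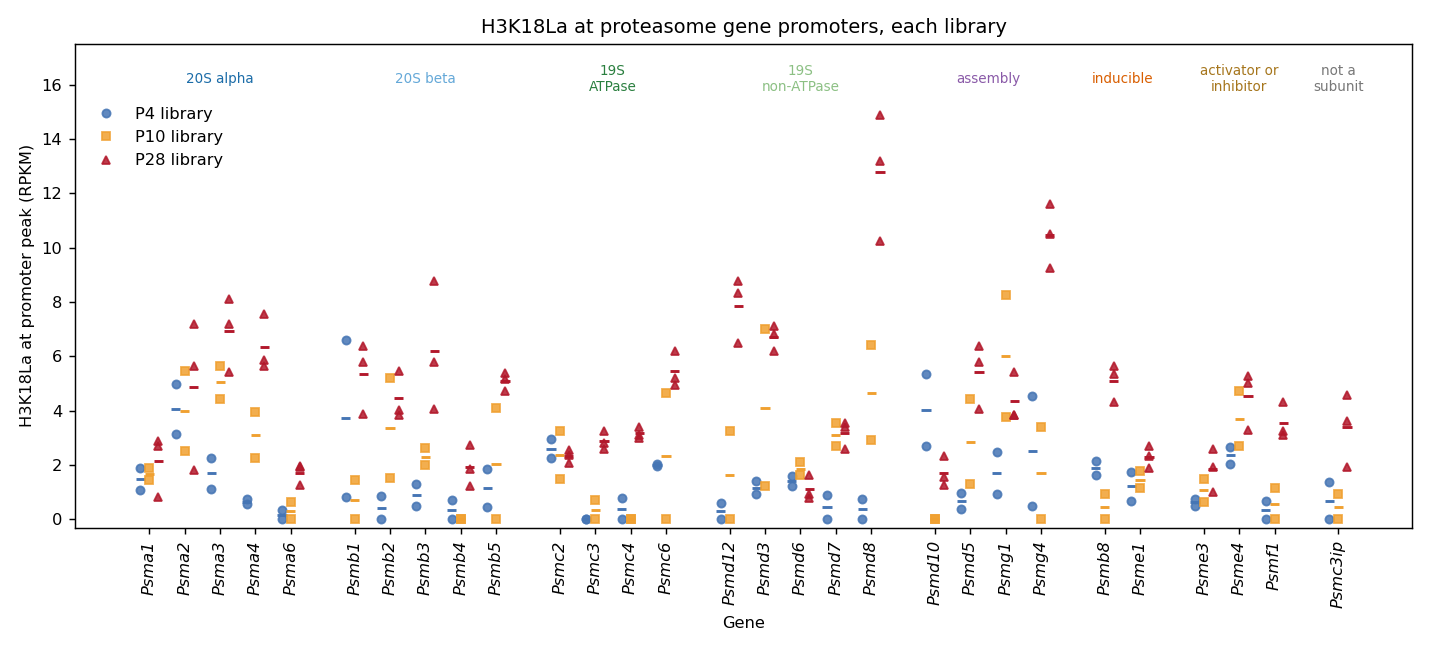
H3K18La at each of the 29 promoters in RPKM (y axis), with every library shown (circles P4, squares P10, triangles P28) and a dash for the mean of each age. The genes are grouped by role. The P28 libraries of Psmd8 (10.2 to 14.9 RPKM) and Psmg4 (9.26 to 11.6 RPKM) stand highest.

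The first comparison asked which proteasome promoters gained or lost the mark between P4 and P28, the span over which rods mature. With limma on log2(RPKM + 1), fitted over all peaks with Benjamini-Hochberg adjustment, 8 of the 29 genes (27.6%) were higher at P28 at an adjusted p under 0.01 and 0 were lower. Over all promoter genes 32.8% were called higher and 0.281% lower, so the members' share lay near the background. The 8 were Psmd8, Psmd12, Psma4, Psmc3, Psmd5, Psmb3, Psmc4 and Psma3, from the 20S core, the 19S particle and its assembly. A further 7 had an adjusted p from 0.01 to under 0.05. In 23 members every P28 library lay above every P4 library (79.3%, as among all promoter genes at 79.3%). Psmd10 was the only member with every P28 library below every P4 library (background 4.66%).

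The median change of the 29 genes was 1.45 on the log2(RPKM + 1) scale, against 1.34 over all promoter genes, and 26 of 29 were positive (89.7% against 90.1%). With Psmc3, which had no read at P4, set at its bound, the median of the 29 genes was 1.21. Centring each library on its median moved the medians to 0.93 and 0.82. Scaling to the reads in peaks moved them to 0.90 and 0.37, with 17 of 29 positive. The number of calls rested on single libraries, falling to 1 (Psmd8) without either P4 library and to 2 (Psmc3 and Psmd8) without any 1 of the P28 libraries, P28 replicate 1 of batch 2 included. It rose to 15 without P10 replicate 1 and to 16 without P10 replicate 2. The share of all promoter genes called higher moved in the same refits, to 9.01% and 10.1% without P4 replicate 1 or 2, to 12.3% to 16.9% without a P28 library and to 54.7% and 55.0% without P10 replicate 1 or 2.

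**Figure D4:**
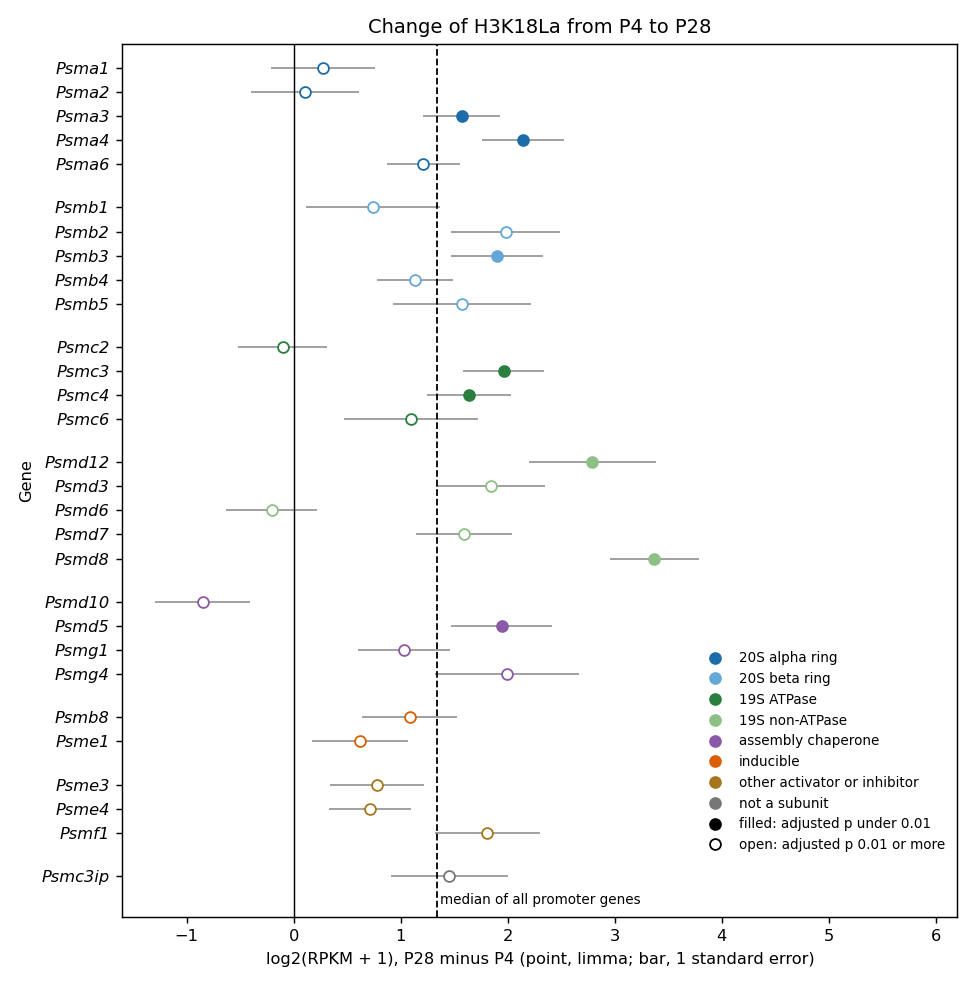
Change of H3K18La from P4 to P28 on the log2(RPKM + 1) scale (x axis) for each of the 29 genes, with 1 standard error, grouped by role (colour). Filled points had an adjusted p under 0.01, and the dashed line is the median of all promoter genes at 1.34. Psmd8 and Psmd12 lie furthest to the right, and Psmc2, Psmd6 and Psmd10 lie left of 0.

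In the 19S regulatory particle, 4 of 9 genes (44.4%) were called higher at P28, against 32.8% of all promoter genes, a difference that was not tested. They were 2 of 4 ATPases and 2 of 5 non-ATPase subunits. Over the 9 genes the median change was 1.64 (1.59 with Psmc3 at its bound). The largest change of all members was that of Psmd8, a non-ATPase subunit of the lid, which processes ubiquitin chains. Psmd8 (chr7:29180268-29180882, GRCm38) had 0.739 and 0 RPKM at P4, 2.94 and 6.41 at P10 and 10.2, 13.2 and 14.9 at P28. No library of an age overlapped with those of another. The reads behind these values were 1 and 0, then 1 and 5, then 24, 132 and 53. Between P4 and P28 it rose by 3.37 ± 0.41 on the log2 scale (SE, limma adjusted p = 0.000352), higher than in 99.4% of promoter genes, and it passed the threshold under each of the 13 alternative fits, with adjusted p from 9.33e-08 to 0.00939. The ratio of pooled levels was 31.3, with a counting interval of 5.56 to 1243 that reflects the single P4 read.

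Psmd12, another lid subunit, had 0.623 and 0 RPKM at P4, 0 and 3.24 at P10 and 6.48, 8.35 and 8.77 at P28. All P28 libraries lay above all others, while P10 replicate 1 held no read. The change from P4 to P28 was 2.79 ± 0.59 (SE, limma adjusted p = 0.0051), and the ratio of pooled levels was 23.1 with a counting interval of 4.08 to 917 on 1 P4 read. This call was kept in 5 of 13 alternative fits and was lost without either P4 library or any 1 P28 library.

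Psmd3, a lid subunit, had 1.41 and 0.926 RPKM at P4, 7.0 and 1.22 at P10 and 7.12, 6.2 and 6.83 at P28. P28 lay above P4 throughout, but the P10 libraries spanned nearly the whole range, and the change of 1.84 ± 0.51 had a limma adjusted p of 0.0170. Psmd7, the inactive partner of the deubiquitinase of the lid, had 0 and 0.895 RPKM at P4, 2.71 and 3.55 at P10 and 3.54, 3.41 and 2.59 at P28. Its P10 and P28 libraries overlapped, and both lay above P4 with adjusted p of 0.0314 and 0.0181 by limma. P4 held 0 and 1 reads and P10 1 and 3. Both ages were at the floor of 3 reads, so the difference at P10 rests on single reads. Psmd6, a lid subunit as well, had the lowest P28 level of the 29 genes, with 1.22 and 1.61 RPKM at P4, 1.62 and 2.12 at P10 and 0.941, 1.65 and 0.774 at P28. Both P10 libraries lay above both P4 libraries, but on 1 and 3 reads against 3 and 3, so this order rests on single reads. P28 overlapped with both ages, and the change from P4 to P28 was -0.20 ± 0.42 (limma adjusted p = 0.716).

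Of the ATPases, Psmc3 had no read in either P4 library, 0 and 0.711 RPKM at P10 and 2.60, 2.83 and 3.27 at P28. With 3 reads per P4 library as the limit that a count of 0 allows, it was at least 2.04-fold higher at P28. Its limma adjusted p was 0.00294. Psmc4 had 0 and 0.785 RPKM at P4, no read in either P10 library and 3.11, 2.99 and 3.41 at P28, where its libraries lay above all others. Its change from P4 to P28 was 1.64 ± 0.39 (limma adjusted p = 0.00872), and the ratio of 9.14 had a counting interval of 1.58 to 367. The calls of Psmc3 and Psmc4 were both lost without either P4 library, and that of Psmc4 also without any 1 P28 library.

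Psmc2, whose peak also holds the start of Dnajc2, had 2.25 and 2.95 RPKM at P4, 1.49 and 3.25 at P10 and 2.38, 2.08 and 2.56 at P28. The ages overlapped, and the change of -0.10 ± 0.42 (limma adjusted p = 0.853) was higher than in 8.49% of promoter genes. Psmc6 had 1.95 and 2.05 RPKM at P4, 4.66 and 0 at P10 and 4.96, 6.18 and 5.20 at P28. All its P28 libraries exceeded the others, and with P10 spread from 0 to 4.66 the change of 1.10 ± 0.63 from P4 had a limma adjusted p of 0.178.

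In the 20S core, 3 of 10 genes (30%) were called higher at P28, a share near the background of 32.8%. They were 2 of the 5 alpha subunits and 1 of the 5 beta subunits. The median change was 1.39, and all 10 changes were above 0, as were 90.1% of those over all promoter genes. Psma4, whose peak also holds the start of AY074887, had 0.570 and 0.749 RPKM at P4, 2.27 and 3.96 at P10 and 7.57, 5.86 and 5.63 at P28. The 3 ages did not overlap. The change from P4 to P28 was 2.14 ± 0.38 (SE, limma adjusted p = 0.00200), on 1 read in each P4 library, and the ratio of 9.37 had a counting interval of 2.54 to 78.2. The P10 libraries held 1 and 4 reads.

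Psma3 had the deepest P4 coverage of the called genes, 8 and 3 reads, and levels of 2.28 and 1.12 RPKM at P4, 5.66 and 4.45 at P10 and 5.43, 7.21 and 8.12 at P28. P10 and P28 overlapped, and both lay above P4. The change from P4 to P28 was 1.57 ± 0.36 (limma adjusted p = 0.00707) and that from P4 to P10 was 1.19 ± 0.39 (limma adjusted p = 0.0394). Psma6, the alpha subunit with the lowest P28 level, had 0.364 and 0 RPKM at P4, 0 and 0.632 at P10 and 1.26, 1.97 and 1.94 at P28. Its change of 1.21 ± 0.34 had a limma adjusted p of 0.0185. The calls of Psma3 and Psma4 were lost without either P4 library or any 1 P28 library.

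Psma1 and Psma2 had the smallest changes of the core. Psma2, whose peak holds the start of Mrpl32 too, had 3.16 and 4.97 RPKM at P4, 2.51 and 5.47 at P10 and 1.82, 5.63 and 7.2 at P28. Its highest and its lowest value were both at P28, the lowest in the library of batch 2. The change from P4 was 0.10 ± 0.51 (limma adjusted p = 0.880) and turned negative after either rescaling. Psma1 had 1.09 and 1.90 RPKM at P4, 1.44 and 1.89 at P10 and 0.837, 2.70 and 2.89 at P28, and again the P28 library of batch 2 was the lowest. Its change was 0.27 ± 0.49 (limma adjusted p = 0.665), or -0.97 after scaling to the reads in peaks.

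Among the beta subunits, Psmb3 had 0.503 and 1.32 RPKM at P4, 2.00 and 2.62 at P10 and 4.06, 5.78 and 8.79 at P28. The 3 ages did not overlap, but P4 held 1 and 2 reads and P10 1 and 3. Both ages were at the floor, so the order of P4 and P10 rests on single reads. The change from P4 to P28 was 1.90 ± 0.43 (SE, limma adjusted p = 0.00671), a call that was lost without either P4 library or any 1 P28 library. Psmb2 had 0.874 and 0 RPKM at P4, 5.21 and 1.52 at P10 and 4.04, 3.84 and 5.48 at P28. P10 and P28 overlapped, and the change of 1.98 ± 0.51 had a limma adjusted p of 0.0121. Psmb5, the only subunit here with a proteolytic site of the standard barrel, had 0.471 and 1.86 RPKM at P4, 0 and 4.09 at P10 and 5.17, 4.72 and 5.37 at P28. All its P28 libraries lay above the others, and the change of 1.57 ± 0.64 had a limma adjusted p of 0.0739.

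Psmb4 had the lowest level of the beta ring, with 0.721 and 0 RPKM at P4, no read in either P10 library and 1.25, 1.85 and 2.74 RPKM at P28. Its change from P4 to P28 was 1.14 ± 0.35 (limma adjusted p = 0.0276). Psmb1 differed most between the P4 libraries, with 0.838 and 6.61 RPKM, and had 0 and 1.45 at P10 and 3.87, 5.78 and 6.37 at P28. Its P4 and P28 ranges overlapped through P4 replicate 2, and the change of 0.74 ± 0.63 had a limma adjusted p of 0.358.

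The inducible subunits were compared with the constitutive ones. Psmb8, which takes the place of Psmb5 in the immunoproteasome, had 1.63 and 2.14 RPKM at P4, 0 and 0.941 at P10 and 5.64, 5.35 and 4.33 at P28. All P28 libraries were above P4, and both P10 libraries were below P4, on 0 and 1 read. The change from P4 to P28 was 1.08 ± 0.44 (limma adjusted p = 0.0722), as deposited, and -0.10 after scaling to the reads in peaks. Psme1, a subunit of the interferon-induced activator ring, had 0.671 and 1.76 RPKM at P4, 1.78 and 1.16 at P10 and 2.32, 1.91 and 2.72 at P28. Its P28 libraries lay above the others, and the change from P4 to P28 was 0.62 ± 0.44 (limma adjusted p = 0.278), or -0.42 after scaling to the reads in peaks.

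Neither inducible gene was called, with a median change of 0.85 that became -0.26 after scaling to the reads in peaks. The medians of the 20S core and the 19S particle after this scaling were 0.88 and 1.58. With 2 genes the inducible class is described by their values only. Psmb8 and Psmb5 ended at like levels, 5.11 ± 0.69 and 5.09 ± 0.34 RPKM at P28 (SD, n = 3), and a difference between the changes of the 2 genes was not tested.

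The assembly chaperones held both a called gain and the lowest change. Psmd5, which helps build the ATPase ring, had 0.372 and 0.978 RPKM at P4, 4.44 and 1.29 at P10 and 5.81, 4.08 and 6.37 at P28. P28 lay above P4 but overlapped with P10, and the change was 1.94 ± 0.47 (SE, limma adjusted p = 0.00944), a call lost without either P4 library or any 1 P28 library. Psmg4, which helps build the alpha ring, had the second highest P28 level, with 0.492 and 4.53 RPKM at P4, 0 and 3.42 at P10 and 10.5, 9.26 and 11.6 at P28. Its P28 libraries lay well above all others, while the P4 libraries held 1 and 7 reads, and the change of 1.99 ± 0.67 had a limma adjusted p of 0.0377. Without P4 replicate 1 the change was 1.05 (adjusted p = 0.362), and without P4 replicate 2 it was 2.94 (adjusted p = 0.0474). Psmg1, the chaperone of the same step, had 0.951 and 2.50 RPKM at P4, 3.78 and 8.25 at P10 and 3.84, 3.86 and 5.42 at P28. Its highest library was at P10, and the change from P4 to P28 was 1.03 ± 0.43 (limma adjusted p = 0.079), or -0.072 after scaling to the reads in peaks.

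Psmd10, a chaperone of the ATPase ring also called gankyrin, had 2.71 and 5.34 RPKM at P4, 0 and 0 at P10 and 2.35, 1.28 and 1.55 at P28. Its peak was the narrowest of the 29, at 335 bases, and held the start of Atg4a as well. The reads behind it were 2 and 3 at P4 and 3, 7 and 3 at P28. The change from P4 to P28 was -0.85 ± 0.45 (limma adjusted p = 0.147), or -1.24 without P4 replicate 1, -0.46 without P4 replicate 2 and -2.41 after scaling to the reads in peaks (adjusted p = 0.0937, 0.442 and 0.0194).

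Among the other regulators, Psmf1, an inhibitor of the core, had 0.670 and 0 RPKM at P4, 0 and 1.16 at P10 and 3.1, 3.26 and 4.33 at P28. Its P28 libraries lay above all others, and the change of 1.81 ± 0.49 had a limma adjusted p of 0.0149. Psme4, an activator that caps the core without ATP, had 2.04 and 2.67 RPKM at P4, 2.70 and 4.71 at P10 and 5.29, 3.30 and 5.03 at P28, with a change of 0.71 ± 0.38 (limma adjusted p = 0.155). Psme3, a nuclear activator, had 0.754 and 0.495 RPKM at P4, 1.5 and 0.654 at P10 and 2.61, 1.94 and 1.00 at P28, with a change of 0.77 ± 0.44 (limma adjusted p = 0.176). In both, P28 lay above P4 and overlapped with P10, and both changes turned negative after scaling to the reads in peaks. Psmc3ip, not a subunit, had 0 and 1.39 RPKM at P4, 0 and 0.921 at P10 and 4.60, 1.94 and 3.63 at P28 (change 1.45 ± 0.55, limma adjusted p = 0.0552).

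The second comparison asked what had changed by P10. By the same limma test 1 of 29 genes was called higher at P10 than at P4 (background 11.1%) and 1 lower (background 0.924%). Psmd8 was the one called higher, with a change of 2.03 ± 0.45 (adjusted p = 0.00746), and the ratio of 12.8 had a counting interval of 1.55 to 587. Psmd10 was the one called lower, with an adjusted p of 0.00650, but both ages were at the floor of 3 reads, so no fold is given, and it was not called by voom, limma's method for counts, on the recovered reads (adjusted p = 0.254). Both calls were lost without either P4 library or any 1 P28 library, and that of Psmd8 also without P10 replicate 2. The median change of the 29 genes was 0.19, against 0.54 over all promoter genes. It was 0.89 against 1.02 with voom, -0.06 against 0.29 after median centring and -0.68 against -0.40 after scaling to the reads in peaks. Among the genes kept by a filter on mean RPKM it was 0.76 against 0.76. At each of these 2 ages 19 of the 29 genes were at the floor. In P10 replicate 1, 12 of the 29 had no read, as had 2758 of the 9956 promoter genes. In 10 members (34.5%) both P10 libraries lay above both P4 libraries (background 45.3%), and in 2, Psmd10 and Psmb8, both lay below (background 9.2%).

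Between P10 and P28, 0 of 29 genes were called by limma at an adjusted p under 0.01, and 0% of all promoter genes were called higher and 0% lower. At an unadjusted p under 0.05 there were 15 members (51.7%, against 39.9% of all promoter genes), and voom on the recovered reads called 2, Psmc6 and Psmg4 (background 4.31% higher). The limma count was 8 without P10 replicate 2 (background 20.3% higher) and 1 (Psmc6) without P10 replicate 1 (background 1.04% higher). The median change was 1.08, against 0.75 over all promoter genes, or 0.84 with the 3 genes without a P10 read (Psmc4, Psmb4 and Psmd10) at their bounds. In 17 members (58.6%) every P28 library lay above every P10 library (background 55%). By class, the median change from P10 to P28 was 0.97 in the 20S core, 1.34 in the 19S particle and 1.28 in the inducible pair. With the genes without a P10 read at their bounds it was 0.66 in the 20S core and 0.87 in the 19S particle, which changed the order of the classes. In the inducible pair, Psmb8 had 2.13 ± 0.44 (limma adjusted p = 0.0184) and Psme1 0.43 ± 0.44 (limma adjusted p = 0.524).

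The genes that feed and control the proteasome were summarised on a list of 29 ubiquitin-proteasome genes outside the symbol rule. Of these, 24 had a promoter peak, with Paaf1, Sem1, Ufd1 and Usp14 among those without one, and 14 of the 24 (58.3%) were called higher at P28 than at P4 with 0 lower, against the background of 32.8% higher. Their median change was 1.54. The difference between the 2 shares was not tested. The calls of this list are given as analysed only, and the background itself ran from 9.01% to 55.0% when 1 library was left out. The transcription factor Nfe2l1, which raises proteasome genes when the proteasome is inhibited, had 0.440 and 0.578 RPKM at P4, 1.75 and 7.63 at P10 and 11.4, 8.09 and 9.36 at P28, and its change was 2.81 ± 0.48 (limma adjusted p = 0.00164). Its activating protease Ddi2 had a change of 2.04 ± 0.39 (limma adjusted p = 0.00305) and the glycanase Ngly1, which removes its sugars, had 1.52 ± 0.33 (limma adjusted p = 0.00538). Nfe2l2, the related factor of the oxidative stress response, changed by 1.72 ± 0.31 (limma adjusted p = 0.00222).

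The polyubiquitin gene Ubb changed by 1.55 ± 0.35 and Rps27a, which encodes ubiquitin fused to a ribosomal protein, by 1.59 ± 0.36 (limma adjusted p = 0.00689 and 0.00671). The ubiquitin-activating enzymes Uba1 and Uba6 were not called, with 0.74 ± 0.48 and 0.23 ± 0.34. Vcp, the segregase that pulls ubiquitylated proteins apart, and Ecpas, an adaptor of the proteasome, were among the 3 of the 24 (12.5%) called higher at P10, a share near the background of 11.1%.

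The proteasome-bound ubiquitin receptor Adrm1 and the assembly factor Pomp were not called, with changes of 1.58 ± 0.46 and 1.27 ± 0.52 (limma adjusted p = 0.0204 and 0.0729). The pooled level of the 24 promoters was 114% and 118% of that of all promoter genes at P4, 127% and 99.7% at P10 and 106% to 119% at P28. The 29 proteasome genes lay between 43.4% and 77.3% in the same libraries.

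Of 13 genes of interferon signalling and antigen presentation, the setting in which the inducible subunits act, 8 had a promoter peak and 3 (37.5%) were called higher at P28, a share near the background of 32.8%. They were Tapbp (2.70 ± 0.34, limma adjusted p = 0.000393), H2-D1 (2.12 ± 0.43, limma adjusted p = 0.00411) and Erap1 (1.78 ± 0.30, limma adjusted p = 0.00150), which load or trim peptides for class I presentation or present them. B2m, the light chain of class I, had 2.11 and 1.67 RPKM at P4 and 1.95, 2.06 and 2.25 at P28. Of the list, Irf1, Irf8, Nlrc5, Stat2 and Tap2 had no promoter peak.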

How the data were processed

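H3K18La CUT&Tag libraries of mouse retina were grouped by the age in their labels. The authors aligned reads to GRCm38 with nf-core/cutandrun, called peaks with MACS, merged peaks found in replicates, and annotated them with ChIPseeker (version 1.34.1) on Ensembl, with promoters from 1000 bases before to 500 after a start. They counted reads per merged peak with csaw, normalised on large genomic windows, and deposited RPKM for each of the 7 libraries. The authors' differential table, from edgeR (version 3.40.2), and their peak positions in a separate file were not used.

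Multiplying RPKM by peak width gave whole reads (tolerance 0.01) and the normalised library size. Since RPKM is not a count, log2(RPKM + 1) was tested with limma (version 3.58.1, R 4.3.3), with a variance trend, in 1 fit of age over all 108253 peaks, with Benjamini-Hochberg adjustment over all peaks and a threshold of 0.01. This scale understates the change of low peaks. The procedure was run on simulated counts whose spread between libraries was set and not estimated from these data. That run therefore does not show how the procedure performs here. An age was at the floor where each library had 3 reads or fewer. A fold against 0 reads used 3 reads per library, and other ratios and levels carry exact 95% counting intervals, which cover counting error only. Named genes were the inducible subunits, every called gene and, within each class, those with the extreme changes and P28 levels; the rest are accounted for. Peak context came from GENCODE M21, promoter windows from RefSeq (GRCm38.p6). The members, classes and gene lists were chosen with earlier results of these data known, so a pattern in them is not independent support. Alternatives were another pseudocount, a filter, 2 rescalings, voom, a replicate block, leaving out each library, the strongest promoter peak and a threshold of 0.05. Some genes of the lists are not reported here.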

Additional observations from a re-analysis of the deposited data

Results flagged for a closer look

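Signal also appeared in peaks that the rule left out because they were annotated to another gene or to a non-coding transcript. The peaks given here had more than 3 reads in each P28 library, except that of Psmd14, which had 1, 8 and 6 reads. The Psmd14 peak lay near the start and had 5.96 and 3.13 RPKM at P4 and 0.689, 1.29 and 2.72 at P28. Its change was -1.14 ± 0.69 (limma adjusted p = 0.200). The peak over the start of Psmb9, an inducible catalytic subunit, is annotated to its divergent neighbour Tap1, and had 2.30 ± 0.04 RPKM at P28 (SD, n = 3), with a change from P4 of 0.56 ± 0.42 (SE, limma adjusted p = 0.300). The peak over Psme2, the partner of Psme1, is annotated to Rnf31 and had 6.27 ± 0.86 RPKM, with a change of 2.09 ± 0.55 (limma adjusted p = 0.0131). Psmb10, the third inducible catalytic subunit, had a peak at a retained-intron transcript with 3.82 ± 0.51 RPKM (change 1.23 ± 0.44, limma adjusted p = 0.0465).

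Among the 19S genes, the peak over Psmd1 had 7.01 ± 1.01 RPKM at P28 and that over Psmd11 4.99 ± 1.24 RPKM, both annotated to retained-intron transcripts. The peak over Psmd13 is annotated to Sirt3 and had 6.12 ± 0.56 RPKM. None of these 3 was called from P4 to P28 (limma adjusted p = 0.0113, 0.0134 and 0.0906). Among the chaperones, the peak over Psmg2, annotated to Cep76, had 8.49 ± 1.81 RPKM and was called higher (change 2.03 ± 0.40, limma adjusted p = 0.00361). The peak over Psmd9 had 4.91 ± 1.35 RPKM at P28 on 7, 51 and 18 reads, with no read in any P4 or P10 library, and was called higher (limma adjusted p = 0.00114). A second promoter peak of Psmd5, at a non-coding transcript, had 7.10 ± 0.53 RPKM and was called higher (change 2.76 ± 0.48, limma adjusted p = 0.00174).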

How the results depend on the processing

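Psmd8 was the only gene called from P4 to P28 under each of the 13 refits. The number of genes called from P4 to P28, 8 as analysed, was 2 with a pseudocount of 0.1, 2 after scaling to the reads in peaks, 4 after median centring, 16 with voom, 15 at an adjusted p under 0.05, and 1 to 16 when 1 library was left out. Of all promoter genes, 22.0%, 5.42%, 21.4% and 52.6% were called higher in the first 4 of these settings and 56.1% were called at 0.05, against 32.8% higher as analysed. With the filter, 45.2% of the promoter genes that it kept were called higher. The number of members called was then 7 of the 18 kept, with Psmb2 but without Psmc3 and Psmc4. From P4 to P10 it was 2 as analysed, 1 with a pseudocount of 0.1, with the filter, after scaling to the reads in peaks and with voom, 6 at an adjusted p under 0.05, and 0 to 3 when 1 library was left out, where 2.41% to 14.4% of all promoter genes were called higher. The gene called with the pseudocount or the scaling was lower at P10, as were 129 and 395 of all 9956 promoter genes in these settings. The gene called with the filter or voom was higher, where 14.8% and 13.3% of all promoter genes were called higher, and 26.4% were called at 0.05. From P10 to P28 it was 0 as analysed, 2 with voom (4.31% of all promoter genes higher), 6 at an adjusted p under 0.05 (20.7%, against 15.8% of all promoter genes), and 0 to 8 when 1 library was left out. Where a library was left out of a pair, the lone library was assumed to vary like the others. Same-numbered libraries showed little correlation of their deviations (-0.001 to 0.047). With a median of 1 or 2 reads per peak in the P4 and P10 libraries, this cannot exclude a pairing. A replicate block gave 2 calls from P4 to P28 (18% of all promoter genes higher), 0 from P4 to P10 (9.16% higher and 51 of 9956 lower) and 0 from P10 to P28 (0% higher). Taking the promoter peak with the most reads changed no count.

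For P28 against P4, the median change was 2.45 over all 29 genes, 2.50 in the 20S core, 3.37 in the 19S particle and 1.20 in the inducible pair with a pseudocount of 0.1, and 2.07, 2.02, 2.31 and 1.07 in the same order with voom. After median centring it was 0.93, 0.87, 1.12 and 0.33. After scaling to the reads in peaks it was 0.90 over all genes, 0.88 in the 20S core and -0.26 in the inducible pair, and the filter left only Psmb8 of this pair (1.08). Leaving out 1 library gave 1.09 to 1.54 over all 29 genes, 1.31 to 1.48 in the 20S core, 1.22 to 1.96 in the 19S particle and 0.61 to 1.10 in the inducible pair. Among genes that were not called, scaling to the reads in peaks turned the change negative in Psma2 (-1.35), Psmb1 (-0.42), Psmb8 (-0.10), Psmc6 (-0.10), Psma1 (-0.97), Psmg1 (-0.072), Psme1 (-0.42), Psme3 (-0.020) and Psme4 (-0.57). Psma2 also turned negative after median centring (-0.42), with the replicate block (-0.20) and when P4 replicate 1, P28 replicate 2 or P28 replicate 3 was left out (range over left-out libraries -0.20 to 0.57). After median centring, 5 of the 29 changes were negative in all, against 3 as analysed. Psmb1 turned negative without P4 replicate 1 (range -0.28 to 1.76), and Psmc2 turned positive without P4 replicate 2 (range -0.25 to 0.038). The causes of these differences were not tested. With at most 8 reads per gene in a P4 library, a lack of a call does not show that a promoter did not change.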

Other observations

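Of the 70 peaks annotated to genes with these symbols, 41 lay outside the 29 promoter peaks, among them 14 in distal intergenic regions, 12 in introns and 7 in 3' UTRs. The median P28 level was 1.82 RPKM for the distal and 1.74 for the intronic peaks. A distal peak assigned to Psmg4, upstream of its start, had 6.44 ± 0.69 RPKM at P28 (SD, n = 3) and was called higher than at P4 (change 1.42 ± 0.33, limma adjusted p = 0.00719). An intronic peak of Psmd1 had no read in any P4 or P10 library and 8, 50 and 20 reads at P28 (limma adjusted p = 0.00133). The called losses of an intronic Psmd14 peak and of a peak assigned to the pseudogene Psmb6-ps2 rested on 2 and 1 reads in the P4 libraries.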
